A study of Mus musculus with 8 samples.

Results

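RGS proteins, the regulators of G protein signalling, are followed here over 8 mouse genes: Rgs1, Rgs2, Rgs3, Rgs10, Rgs14, Rgs16, Rgs18 and Rgs19. They were taken as every probe set that the platform's annotation assigns to those symbols, and all 8 genes were among the 12520 genes that could be tested. They are covered by 18 probe sets, of which 17 passed the filter on dim signals, a mean log2 level of at least 5.38. The one left out, the dimmest of 4 for Rgs2, lay between 4.11 and 4.85 on the log2 scale on all arrays.

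The arrays measured total RNA of CD8 T cells from spleens of C57BL/6 mice, positively selected with magnetic beads. Each of 4 groups had 2 arrays: p50 cRel DKO, PKC theta KO (written PKCθ KO below) and WT cells, each cultured on dendritic cells that carried the ovalbumin peptide N4 (here p50 cRel DKO N4, PKCθ KO N4 and WT N4), and WT cells on dendritic cells without peptide (WT non-pulsed). All cultures ran for 18 h at 10 T cells for each bone-marrow-derived dendritic cell, after which CD11c-positive cells were removed. PKCθ is a kinase that relays signals of the T cell receptor, and p50 and cRel are subunits of the transcription factor NF-kB. The sources used here give neither the antigen receptor the T cells carried nor the alleles of the knockouts nor the cells that lack the genes. They also leave out whether a group's 2 arrays stem from separate mice, so p-values measure the spread between these arrays only.

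A G protein-coupled receptor switches on the alpha subunit of a G protein by loading it with GTP. RGS proteins speed the hydrolysis of that GTP and so shorten the signal. In lymphocytes they are best known for damping responses to chemokines and sphingosine 1-phosphate, whose receptors act mainly through the Gi class, and thereby for tuning migration. The members described here fall in the R4 subfamily of small proteins with little beyond the RGS domain in most cases (Rgs1, Rgs2, Rgs3, Rgs16, Rgs18), the R12 subfamily (Rgs10, Rgs14) and the RZ subfamily (Rgs19).

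Before the values, the arrays were set against their labels. Cd3e, a chain of the T cell receptor complex, lay between 11.85 and 12.37 on all 8 arrays, and the coreceptor gene Cd8a was also high on all of them. The WT non-pulsed arrays stood apart from the 6 N4 arrays in genes of other blood cells: the log2 of the summed signal lay between 12.37 and 13.63 on N4 arrays and between 15.79 and 16.29 on WT non-pulsed arrays for 15 B cell markers, and between 14.17 and 14.99 against 16.98 to 17.21 for 29 markers of dendritic cells and macrophages. Rel, which encodes cRel, read 6.19 and 5.92 on the p50 cRel DKO N4 arrays, against 9.82 and 9.53 on the WT N4 arrays. The p50 part of that label was not checked. Prkcq, which encodes PKCθ, read 11.00 and 10.75 on the PKCθ KO N4 arrays, against 11.74 and 11.35 on the WT N4 arrays. Which exons the knockout lacks is not stated, so this probe set does not check that label. Xist, the RNA that silences one X chromosome in females, read 12.27 to 12.57 on the knockout arrays, 5.18 and 6.65 on WT N4 arrays, and 6.05 and 11.84 on WT non-pulsed arrays. Eif2s3y, a gene of the Y chromosome, read 5.42 to 6.73 on the knockout arrays, 10.78 and 11.20 on WT N4 arrays, and 11.06 and 10.65 on WT non-pulsed arrays, so that WT non-pulsed replicate 2 was high in both genes. Genotype and the difference in these sex-linked genes cannot be told apart when a knockout is set against WT N4, whereas both knockouts had similar levels of each.

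**Figure D1:**
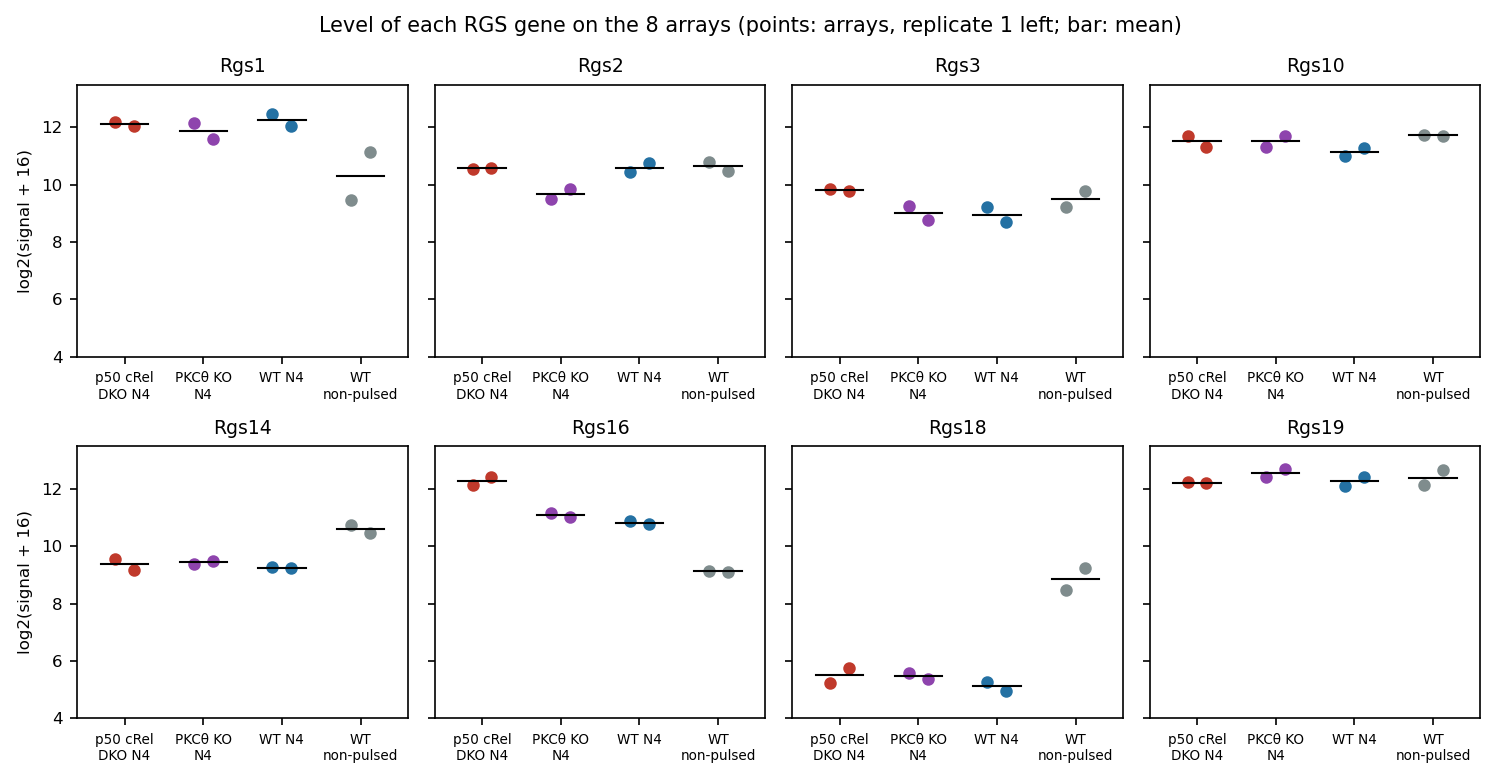
Level of each RGS gene, as log2(signal + 16) on the y axis, on the 8 arrays (points, replicate 1 left) in the 4 groups on the x axis, with the group mean as a bar; the brightest probe set of each gene is shown. Rgs16 was highest on the 2 p50 cRel DKO N4 arrays (12.15 and 12.43), and Rgs18 was high only on the WT non-pulsed arrays (8.48 and 9.26).

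Values below are log2 of the deposited signal plus 16, and a difference is the first group minus the second on that scale, with its standard error and adjusted p from limma over all genes. In WT N4 minus WT non-pulsed, 2 of the 8 RGS genes rose (Rgs1, Rgs16), 3 fell (Rgs10, Rgs14, Rgs18) and 3 did not pass the test (adjusted p under 0.05), where 40.7% of all genes passed it, 17.2% higher and 23.5% lower. In p50 cRel DKO N4 minus WT N4, 1 of 8 passed (Rgs16, higher), against 0.519% of all genes. In p50 cRel DKO N4 minus PKCθ KO N4 the single gene past the test was again Rgs16 (1 of 8, higher), against 0.431% of all genes. In PKCθ KO N4 minus WT N4, limma called 0 of 8, against 0.024% of all genes, and 1 member (Rgs2) had an unadjusted p under 0.05, as did 2.96% of all genes. The 3 genes called there were Eif2s3y, Kdm5d and Uty, all of the Y chromosome, so that share holds sex-linked genes only. An unadjusted p under 0.05 was also found for Rgs3 besides Rgs16 in p50 cRel DKO N4 minus WT N4, against 6.29% of all genes, and for Rgs2 and Rgs3 besides Rgs16 in p50 cRel DKO N4 minus PKCθ KO N4, against 7.16%. The arrays of both groups did not overlap for 5 of 8 members in WT N4 against WT non-pulsed (68.4% of all genes), for 3 of 8 in p50 cRel DKO N4 against WT N4 (30.5%), for 4 of 8 in p50 cRel DKO N4 against PKCθ KO N4 (33.9%) and for 5 of 8 in PKCθ KO N4 against WT N4 (25.8%). The median difference of the 8 members was -0.34 in WT N4 minus WT non-pulsed (-0.10 over all genes), 0.25 in p50 cRel DKO N4 minus WT N4 (-0.00 over all genes), 0.12 in p50 cRel DKO N4 minus PKCθ KO N4 (0.02 over all genes) and 0.23 in PKCθ KO N4 minus WT N4 (-0.02 over all genes).

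**Figure D2:**
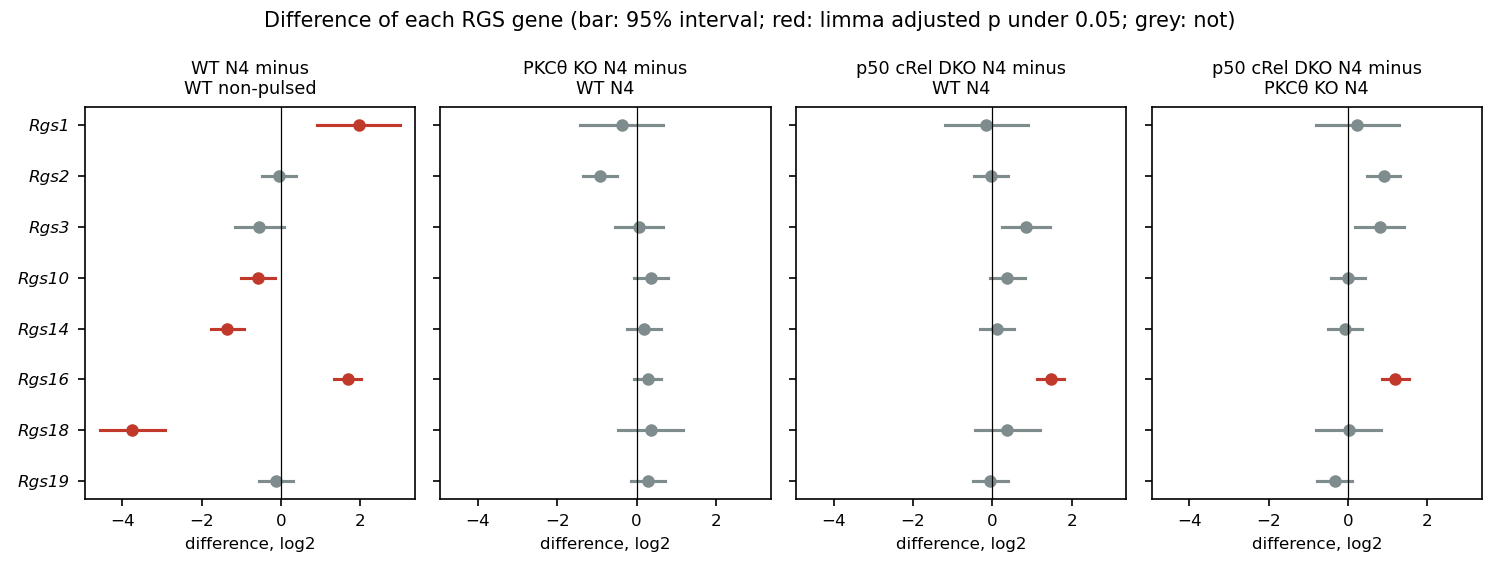
Difference of each RGS gene in log2(signal + 16) on the x axis, with its 95% interval, in 4 comparisons; the genes run down the y axis. Red points passed the test (5 for WT N4 minus WT non-pulsed, 0 for PKCθ KO N4 minus WT N4, and Rgs16 alone in both comparisons of the p50 cRel DKO).

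Rgs16 encodes an R4 protein that acts on Gi and Gq alpha subunits and is known as a gene induced by activation in lymphocytes. It was highest in the p50 cRel DKO and lowest without peptide. Its brightest probe set read 12.15 and 12.43 on the p50 cRel DKO N4 arrays, 11.17 and 11.03 on the PKCθ KO N4 arrays, 10.87 and 10.77 on the WT N4 arrays, and 9.16 and 9.11 on the WT non-pulsed arrays. No 2 groups overlapped, although PKCθ KO N4 and WT N4 lay close together. On the linear scale the signals were 4529.9 and 5511.8 on the p50 cRel DKO N4 arrays, 2288.8 and 2069.2 on the PKCθ KO N4 arrays, 1854.4 and 1725.8 on the WT N4 arrays, and 554.4 and 537.1 on the WT non-pulsed arrays. With peptide, wild-type cells held 3.21 times the level of WT non-pulsed cells, a difference of 1.68 (SE 0.15, 95% interval 1.34 to 2.02, limma adjusted p = 8.2e-05).

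The p50 cRel DKO went beyond WT N4 by 1.47 (SE 0.15, interval 1.13 to 1.81, limma adjusted p = 0.0042), which is 2.78-fold. The gap was 1.28 between arrays numbered 1 and 1.67 between arrays numbered 2. Against PKCθ KO N4 it was higher by 1.19 (SE 0.15, interval 0.85 to 1.53, limma adjusted p = 0.0184), or 2.29-fold. PKCθ KO N4 minus WT N4 gave 0.28 (interval -0.06 to 0.62, limma adjusted p = 1.00), so a rise above 0.62 lies outside the interval. Both other Rgs16 probe sets kept this order for the p50 cRel DKO. One read 11.96 and 11.97 on its arrays, 10.47 and 10.45 on PKCθ KO N4 arrays, 10.33 and 10.49 on WT N4 arrays, and 7.87 and 8.05 on WT non-pulsed arrays. The dimmest read 9.87 and 9.89 on p50 cRel DKO N4 arrays, 7.97 and 8.37 on PKCθ KO N4 arrays, 7.82 and 8.34 on WT N4 arrays, and 6.05 and 6.82 on WT non-pulsed arrays. In both, the PKCθ KO N4 and WT N4 arrays overlapped while the p50 cRel DKO N4 arrays lay above all others. In the fit over all probe sets their excess over WT N4 was 1.55 (limma adjusted p = 0.0078) and 1.81 (limma adjusted p = 0.103).

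The Rgs16 calls in the p50 cRel DKO depended on single arrays and on scaling. Without its replicate 2 the difference from WT N4 was 1.33 with limma adjusted p = 0.067, and without any 1 of the 4 arrays the difference from PKCθ KO N4 lay between 1.05 and 1.33 with limma adjusted p between 0.0504 and 0.207. With each array centred on its median, the differences were 1.46 (limma adjusted p = 0.0904) and 1.18 (limma adjusted p = 0.303).

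The 250 bases before the annotated start of Rgs16 and of Rgs2 are shown because these 2 genes had the largest differences of the 8 between the knockouts. They come from RefSeq for mouse build GRCm38.p6, which held promoters of 5 of the 8 genes (8 promoters). Rgs1, Rgs14 and Rgs18 are named only. Capitals mark matches, on either strand, to a GC box (GGGCGG, or CCGCCC on the other strand), a CCAAT box (CCAAT, or ATTGG on the other strand) or a half-site of the cyclic AMP response element (TGACG, or CGTCA on the other strand). 2 overlapping GC boxes in Rgs16 share 1 base.
Rgs16 promoter, chr1:153740103-153740352, strand +: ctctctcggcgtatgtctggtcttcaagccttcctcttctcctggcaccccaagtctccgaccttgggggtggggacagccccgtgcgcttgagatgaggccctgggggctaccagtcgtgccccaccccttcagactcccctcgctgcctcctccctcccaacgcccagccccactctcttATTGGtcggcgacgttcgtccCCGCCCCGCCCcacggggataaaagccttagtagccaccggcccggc
Rgs2 promoter, chr1:144004150-144004399, strand -: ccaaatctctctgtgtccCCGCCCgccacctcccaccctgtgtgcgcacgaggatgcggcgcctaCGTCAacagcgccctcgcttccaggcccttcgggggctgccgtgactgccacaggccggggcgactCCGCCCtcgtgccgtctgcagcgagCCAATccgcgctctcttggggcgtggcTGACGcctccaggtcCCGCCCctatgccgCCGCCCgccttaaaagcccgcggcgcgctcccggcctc
GC content was 66.4% for Rgs16 and 72.4% for Rgs2. A GC box was in both, with 2 matches in Rgs16 and 4 in Rgs2, and in 32.7% of 32817 promoter windows of this length. A CCAAT box was in both, once each, and in 33.8% of windows. The half-site TGACG was in Rgs2 alone among the 8 promoters, with 2 matches, and in 17.8% of windows. The letters of the NF-kB motif, found in 3.90% of windows, and of AP-1 (TGANTCA), found in 6.75%, were in none of these 8 windows, and the short NFAT core GGAAA was in 3 of them (Rgs3 and Rgs19) and in 55.6% of all windows. A match is a description of letters.

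Rgs1 encodes an R4 protein that damps chemokine receptor signalling and is abundant in activated B cells and tissue-resident T cells. It was higher in the bulk RNA of cultures with peptide, where markers of other blood cells were mostly lower, and their part was not tested. Its only probe set read 12.19 and 12.04 on the p50 cRel DKO N4 arrays, 12.15 and 11.61 on the PKCθ KO N4 arrays, 12.46 and 12.06 on the WT N4 arrays, and 9.46 and 11.16 on the WT non-pulsed arrays. All 6 N4 arrays were above both WT non-pulsed arrays, and the 3 N4 groups overlapped. WT N4 exceeded WT non-pulsed by 1.96 (SE 0.46, interval 0.91 to 3.0, limma adjusted p = 0.0091). The size rests on which WT non-pulsed array is used: it was 1.10 without WT non-pulsed replicate 1 and 2.81 without replicate 2, and the adjusted p stayed under 0.05 in both. Replicate 2 is also the wild-type array with a high Xist level, whose part in this was not tested. Between genotypes under peptide no difference passed, with 95% intervals of -1.19 to 0.90 for the p50 cRel DKO minus WT N4 and of -1.43 to 0.66 for PKCθ KO minus WT N4.

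Rgs2 encodes an R4 protein that prefers Gq alpha subunits. It was lower in PKCθ KO N4 than in every other group on 3 probe sets, but PKCθ KO N4 minus WT N4 did not pass the test. The brightest probe set read 10.55 and 10.59 on the p50 cRel DKO N4 arrays, 9.51 and 9.84 on the PKCθ KO N4 arrays, 10.45 and 10.75 on the WT N4 arrays, and 10.80 and 10.50 on the WT non-pulsed arrays. Both PKCθ KO N4 arrays lay below the other 6, which overlapped one another. The same order held on the other probe sets past the filter, which gave 8.83 and 9.31, and 8.24 and 8.31, on PKCθ KO N4 arrays and 9.60 and 10.17, and 9.18 and 9.51, on WT N4 arrays. PKCθ KO N4 minus WT N4 was -0.92 (SE 0.19, interval -1.35 to -0.50), a level of 0.527 times that of WT N4, with an unadjusted p of 0.00089 and a limma adjusted p of 0.446. It was -0.94 between arrays numbered 1 and -0.91 between arrays numbered 2, and the other probe sets gave -0.81 and -1.07.

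In the p50 cRel DKO the difference of Rgs2 from WT N4 was -0.03 (interval -0.45 to 0.40, limma adjusted p = 1.00). Its level exceeded that in PKCθ KO N4 by 0.90 (SE 0.19, interval 0.47 to 1.32, unadjusted p = 0.00107, limma adjusted p = 0.122). Peptide made no difference that passed in wild-type cells, where WT N4 minus WT non-pulsed was -0.05 (interval -0.48 to 0.37, limma adjusted p = 0.860).

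**Figure D3:**
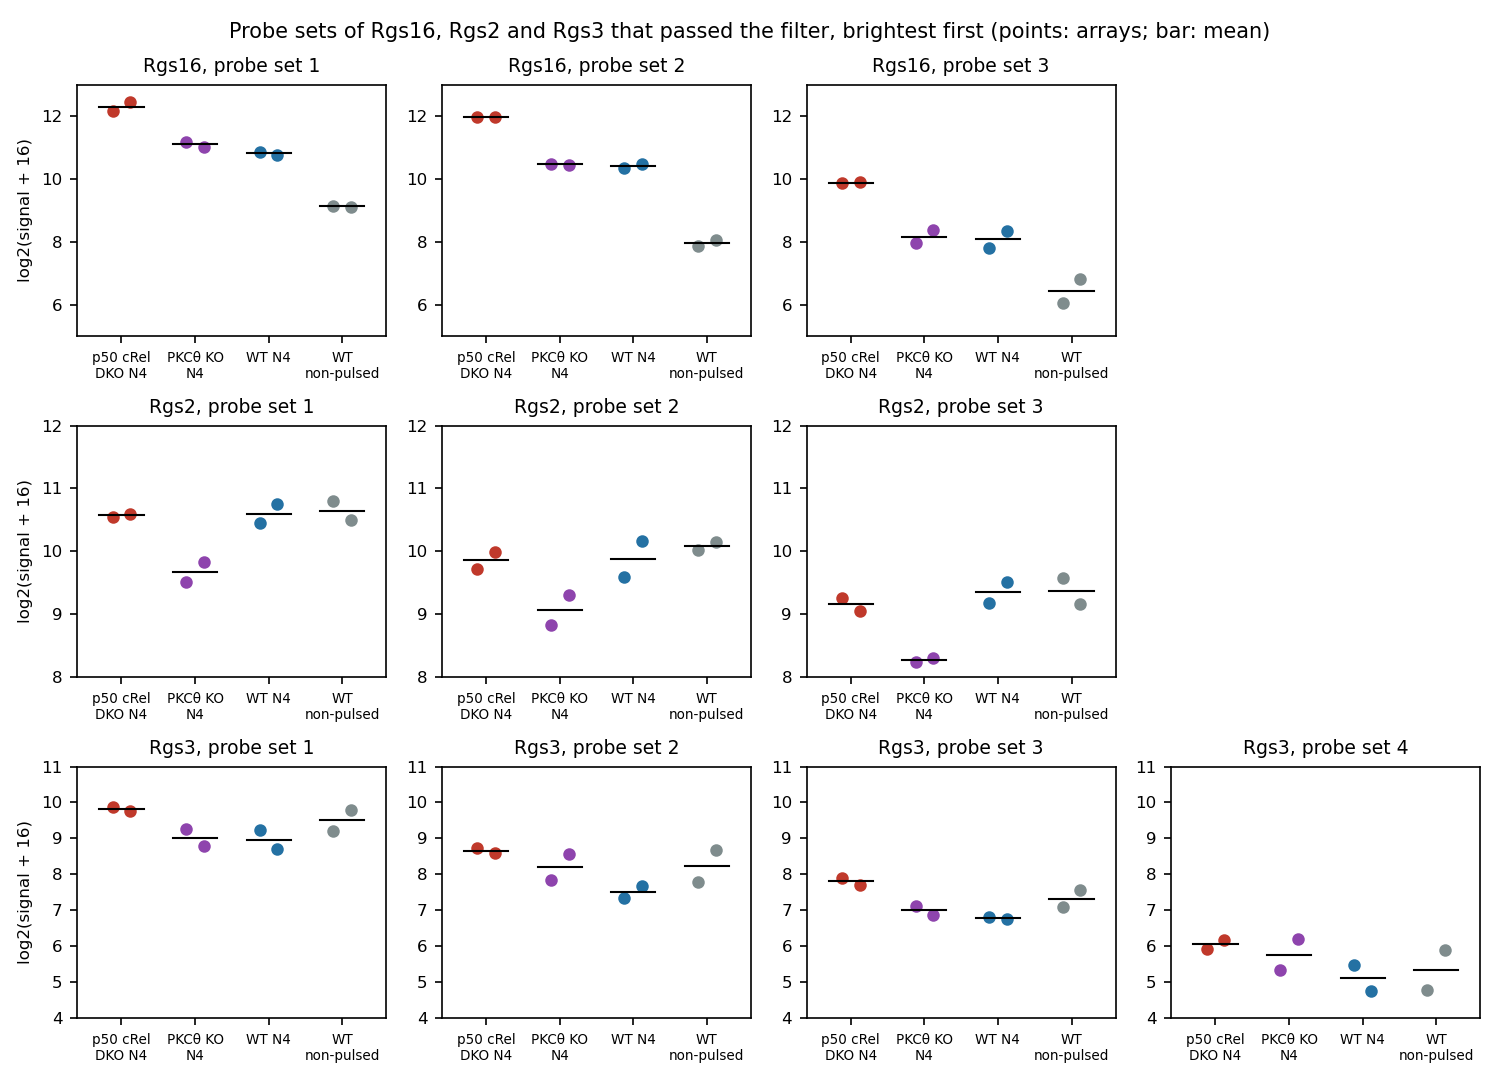
Levels of each probe set of Rgs16 (top), Rgs2 (middle) and Rgs3 (bottom) that passed the filter, as log2(signal + 16) on the y axis, on the 8 arrays (points) with group means (bars) in the 4 groups on the x axis. All 3 Rgs16 probe sets were highest in p50 cRel DKO N4, and all 3 Rgs2 probe sets were lowest in PKCθ KO N4.

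Rgs3 encodes an R4 protein with several isoforms that acts on Gi and Gq alpha subunits. It was higher in p50 cRel DKO N4 than in WT N4 on all 4 of its probe sets without passing the test. The brightest read 9.86 and 9.78 on the p50 cRel DKO N4 arrays, 9.26 and 8.78 on the PKCθ KO N4 arrays, 9.23 and 8.70 on the WT N4 arrays, and 9.22 and 9.80 on the WT non-pulsed arrays. The p50 cRel DKO N4 arrays lay above both other N4 groups and overlapped WT non-pulsed. The difference from WT N4 was 0.86 (SE 0.27, interval 0.24 to 1.47, unadjusted p = 0.0117, limma adjusted p = 0.399). The other 3 probe sets gave 0.94, 1.02 and 1.16, and in none did the 2 groups overlap. Against PKCθ KO N4 the brightest probe set gave 0.80 (interval 0.19 to 1.41, limma adjusted p = 0.498). The other 3 gave 0.81, 0.45 and 0.29 against PKCθ KO N4, and the groups overlapped in the last of these. PKCθ KO N4 was also higher than WT N4 on all 4 probe sets, by 0.06 to 0.71. Those groups did not overlap on 2 of them, and none passed the test. WT N4 minus WT non-pulsed was -0.54 (interval -1.16 to 0.07, limma adjusted p = 0.144).

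Rgs18 encodes an R4 protein known from platelets, megakaryocytes and other blood cells. It was high on the WT non-pulsed arrays and close to the bottom of the measured range with peptide in all genotypes. The brighter probe set read 5.24 and 5.76 on the p50 cRel DKO N4 arrays, 5.58 and 5.39 on the PKCθ KO N4 arrays, 5.28 and 4.97 on the WT N4 arrays, and 8.48 and 9.26 on the WT non-pulsed arrays. On the linear scale these were 21.8 and 38.1 on p50 cRel DKO N4 arrays, 31.7 and 25.9 on PKCθ KO N4 arrays, 22.8 and 15.3 on WT N4 arrays, and 341.9 and 596.7 on WT non-pulsed arrays. All 6 N4 arrays lay far below both WT non-pulsed arrays, near the filter's limit of 5.38, and the other probe set gave 5.09 to 5.62 on N4 arrays and 8.43 and 9.16 on WT non-pulsed arrays. WT N4 minus WT non-pulsed was -3.75 (SE 0.36, interval -4.57 to -2.93, limma adjusted p = 0.000117). The filter used the mean over all 8 arrays, which the WT non-pulsed arrays raised. With peptide the group means were 5.12 in WT N4, 5.48 in PKCθ KO N4 and 5.50 in p50 cRel DKO N4. Rgs18 was thus kept in the test with the help of the group where it was high. The added 16 sets the scale at such low signals, so this difference understates the ratio of signals. Between genotypes under peptide the differences on the brighter probe set lay between 0.02 and 0.38 and did not pass (limma adjusted p = 1.00 for each). The other probe set had the opposite sign: -0.08 for p50 cRel DKO N4 and -0.07 for PKCθ KO N4, each minus WT N4. For p50 cRel DKO N4 minus PKCθ KO N4 it gave -0.01, and none of these passed.

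Most marker genes of platelets, B cells, dendritic cells and macrophages, and neutrophils fell in WT N4 as Rgs18 did. Over all genes 23.5% fell and 17.2% rose. Of 5 natural killer cell markers 2 fell, 1 rose and 2 did not pass. The summed signal of 11 platelet and megakaryocyte markers lay between 9.69 and 10.46 on N4 arrays and at 13.72 and 14.22 on WT non-pulsed arrays on the log2 scale, and 9 of the 11 fell in WT N4. All 15 measured B cell markers fell, as did 24 of 29 markers of dendritic cells and macrophages and 9 of 9 neutrophil markers, whose summed signal lay between 9.19 and 10.92 on N4 arrays and at 15.00 and 15.03 on WT non-pulsed arrays. Of 9 CD8 T cell markers 5 rose and none fell, with summed signals of 15.72 to 16.13 on N4 arrays and 15.19 and 15.33 on WT non-pulsed arrays. 2 complement genes of macrophages, C1qa and C1qc, were under the filter's limit on every N4 array. The part of these cells in the RGS differences between WT N4 and WT non-pulsed was not tested, and in such bulk RNA fewer cells of a type and less RNA per cell cannot be told apart.

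**Figure D4:**
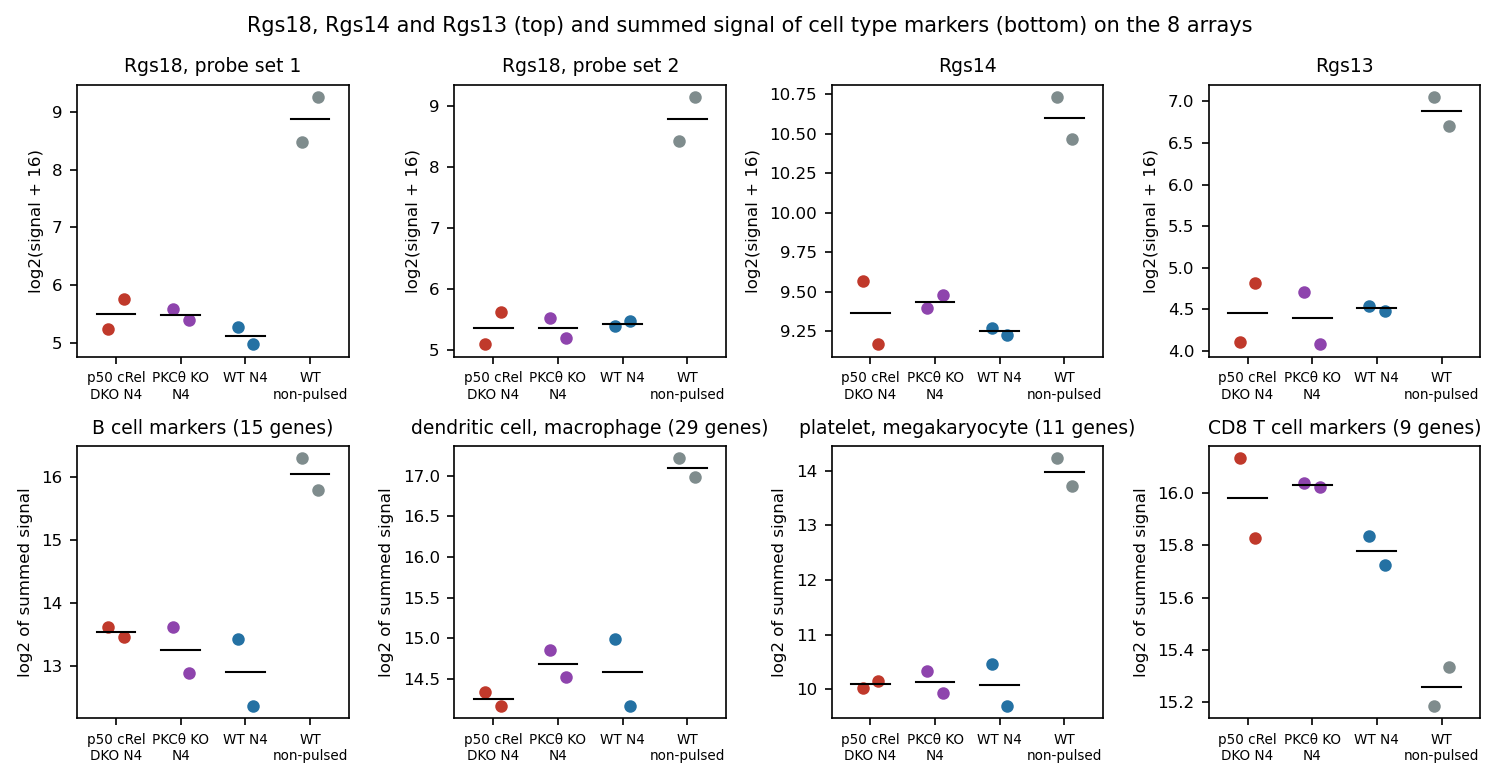
Levels on the 8 arrays of both Rgs18 probe sets, Rgs14 and Rgs13 (top, log2(signal + 16)) and of the summed signal of 4 marker lists (bottom, log2), by group on the x axis, with group means as bars; each panel has its own y range. Rgs18, Rgs14, Rgs13 and the B cell, dendritic cell and platelet marker sums were higher on both WT non-pulsed arrays than on all 6 N4 arrays, and the CD8 T cell marker sum was lower.

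Rgs14 encodes an R12 protein that joins an RGS domain to Ras-binding domains and a GoLoco motif, which binds inactive Gi alpha subunits. It read 9.57 and 9.17 on the p50 cRel DKO N4 arrays, 9.40 and 9.48 on the PKCθ KO N4 arrays, 9.27 and 9.23 on the WT N4 arrays, and 10.73 and 10.47 on the WT non-pulsed arrays. Both WT non-pulsed arrays lay above all N4 arrays, and the p50 cRel DKO N4 arrays overlapped the other N4 groups. WT N4 minus WT non-pulsed was -1.35 (SE 0.19, interval -1.78 to -0.92, limma adjusted p = 0.00067). With each array centred on its median it was -0.95 (limma adjusted p = 0.051), a scaling under which the median of all genes was 0.30 in place of -0.10. Relative to the median of all genes the fall was -1.25. The B cell, dendritic cell and platelet marker sums were also higher on both WT non-pulsed arrays than on all N4 arrays. Over all genes 23.5% fell in WT N4, and the part of other cells in the Rgs14 difference was not tested.

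Rgs10 encodes a small R12 protein that acts on Gi alpha subunits and is abundant in leukocytes and microglia. It read 11.71 and 11.34 on the p50 cRel DKO N4 arrays, 11.31 and 11.71 on the PKCθ KO N4 arrays, 11.00 and 11.28 on the WT N4 arrays, and 11.74 and 11.71 on the WT non-pulsed arrays. WT N4 was lowest and its arrays did not overlap WT non-pulsed, while the knockout arrays ranged between 11.31 and 11.71. The fall in WT N4 against WT non-pulsed was -0.58 (SE 0.19, interval -1.01 to -0.15, limma adjusted p = 0.0372), or -0.48 relative to the median of all genes. That call was lost in 6 of 14 alternatives: with median centring (-0.18, limma adjusted p = 0.677), in the fit over all probe sets (limma adjusted p = 0.0538), in eBayes without trend (limma adjusted p = 0.0748), and without WT N4 replicate 1 (-0.44, limma adjusted p = 0.197), WT non-pulsed replicate 1 (-0.57, limma adjusted p = 0.118) or WT non-pulsed replicate 2 (-0.59, limma adjusted p = 0.108). The p50 cRel DKO and the PKCθ KO exceeded WT N4 by 0.38 (interval -0.05 to 0.81) and 0.37 (interval -0.06 to 0.80), and neither passed.

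Rgs19 encodes an RZ protein, also called GAIP, that acts on Gi and Gz alpha subunits. On the brightest probe set of each gene, its group means differed least of the 8 genes. It read 12.25 and 12.20 on the p50 cRel DKO N4 arrays, 12.42 and 12.69 on the PKCθ KO N4 arrays, 12.12 and 12.42 on the WT N4 arrays, and 12.14 and 12.65 on the WT non-pulsed arrays. On this probe set the p50 cRel DKO N4 and PKCθ KO N4 arrays did not overlap, and all other pairs of groups did. Its group means spanned 0.33, and WT N4 minus WT non-pulsed was -0.13 (interval -0.56 to 0.31, limma adjusted p = 0.646). PKCθ KO N4 minus WT N4 was 0.28 (interval -0.15 to 0.72) and p50 cRel DKO N4 minus PKCθ KO N4 was -0.33 (interval -0.77 to 0.11), neither of which passed. The other probe set gave -0.49 for p50 cRel DKO N4 minus PKCθ KO N4, where the arrays overlapped. For PKCθ KO N4 minus WT non-pulsed it gave 0.44, without overlap. It gave 0.41 for PKCθ KO N4 minus WT N4 and 0.03 for WT N4 minus WT non-pulsed, and none of these passed.

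Each knockout was also set against WT non-pulsed, where genotype and peptide both differ and the WT non-pulsed arrays are shared with the comparison in wild-type cells. In p50 cRel DKO N4, 2 of the 8 genes rose and 2 fell, against 39.3% of all genes past the test. In PKCθ KO N4, 2 rose and 3 fell, against 40.6% of all genes. Rgs16 was higher by 3.16 (8.92-fold, limma adjusted p = 1.0e-05) in the p50 cRel DKO, by 1.96 (3.90-fold) in the PKCθ KO and by 1.68 (3.21-fold) in wild type. Rgs1 was higher by 1.81 in the p50 cRel DKO, 1.57 in the PKCθ KO and 1.96 in wild type. For the p50 cRel DKO this call was lost without its replicate 1 (1.73, limma adjusted p = 0.0699), and the difference was 0.96 without WT non-pulsed replicate 1. For the PKCθ KO it was lost without its replicate 1 (1.30, limma adjusted p = 0.125), without WT non-pulsed replicate 1 (0.72, limma adjusted p = 0.0683) and in eBayes without trend (limma adjusted p = 0.051). Rgs18 was lower in all 3, with -3.37 in the p50 cRel DKO, -3.39 in the PKCθ KO and -3.75 in wild type, and Rgs14 likewise, with -1.23 in the p50 cRel DKO, -1.16 in the PKCθ KO and -1.35 in wild type. With median centring the Rgs14 call was lost in both knockouts, at -0.84 (limma adjusted p = 0.0793) in the p50 cRel DKO and -0.75 (limma adjusted p = 0.111) in the PKCθ KO. Rgs2 was lower past the test in the PKCθ KO alone (-0.98, limma adjusted p = 0.0034; with median centring -0.57, limma adjusted p = 0.164), while p50 cRel DKO N4 minus WT non-pulsed was -0.08 (limma adjusted p = 0.781), and the test between the knockouts themselves did not pass, as given above.

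Rgs2, Rgs13, Rgs1, Rgs21 and Rgs18 follow one another on chromosome 1 in the RefSeq gene order, and Rgs16 is elsewhere on the same chromosome. The adjacent genes did not all share a pattern: Rgs1 was higher on all N4 arrays, Rgs18 was lower on all of them, and Rgs2 was lowest in PKCθ KO N4. Rgs13, known from germinal centre B cells, stayed under the filter and had no test. It read 4.10 and 4.82 on the p50 cRel DKO N4 arrays, 4.71 and 4.08 on the PKCθ KO N4 arrays, 4.54 and 4.49 on the WT N4 arrays, and 7.05 and 6.71 on the WT non-pulsed arrays. Both WT non-pulsed arrays were above all others, as they were for Rgs18 and for the B cell marker sums. Rgs19 lies on chromosome 2, Rgs3 on 4, Rgs10 on 7 and Rgs14 on 13.

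Other genes with an RGS or RGS-like domain, as listed, changed about as often (43.8%) as all genes (40.7%). The list also held Rgs7bp and Rgs9bp, which encode proteins that bind RGS proteins. Of 24 listed, 16 were measured, and in WT N4 minus WT non-pulsed 6 fell, 1 rose and 9 did not pass, with a median of -0.27. Those that fell included Snx14 (-1.36, limma adjusted p = 0.0029) and Snx13 (-0.78, limma adjusted p = 0.0043), sorting nexins of the endosomal system. Arhgef11 (-1.21, limma adjusted p = 0.0063) and Arhgef1 (-0.84, limma adjusted p = 0.0082), which act downstream of G12 and G13 alpha subunits, fell too, as did Axin2, a scaffold of the Wnt pathway (-0.75, limma adjusted p = 0.0387). Snx25 rose by 0.71 (limma adjusted p = 0.0343). With median centring 2 of the 16 passed in place of 7, while over all 12520 genes 3703 passed in place of 5101. In the 3 comparisons between genotypes under peptide limma called 0 of 16, against 0.024% to 0.519% of all genes.

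The G protein subunits are the switches that RGS proteins act on. Of 23 measured G protein subunits (28 listed), 6 fell with peptide in wild-type cells, 1 rose and 16 did not pass, with a median of -0.14. The share called was 30.4%, beside 40.7% of all genes, and the part of the platelet, B cell and myeloid markers that fell on the same arrays was not tested. Gnai2, the main Gi alpha subunit of leukocytes, averaged 12.24 ± 0.03 in WT N4 and 13.03 ± 0.12 in WT non-pulsed (SD, n = 2 each; difference -0.79, limma adjusted p = 0.0014). Gnai3 gave 0.10 (limma adjusted p = 0.658), and Gnaq, the alpha subunit that Rgs2 prefers, fell by 1.10 (limma adjusted p = 0.0223). The gamma subunits Gng11 (-2.82) and Gngt2 (-2.02) fell too, and Gna11 alone rose (0.49, limma adjusted p = 0.0443). With median centring 3 of the 23 passed in place of 7 (over all genes 3703 in place of 5101). Between genotypes under peptide limma called 0 of 23, against 0.024% to 0.519% of all genes.

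Receptors feed into these switches. Of 30 measured leukocyte G protein-coupled receptors (39 listed), 16 fell with peptide in wild-type cells, 2 rose and 12 did not pass, with a median of -0.97. The share called was 60.0%, beside 40.7% of all genes, and 17 passed with median centring in place of 18 (over all genes 3703 in place of 5101). S1pr1, the sphingosine 1-phosphate receptor that guides T cells out of lymphoid organs, averaged 6.94 ± 0.55 in WT N4 and 11.06 ± 0.37 in WT non-pulsed (SD, n = 2 each; difference -4.12, limma adjusted p = 0.00017). The chemokine receptors Ccr9 (-6.23), Ccr6 (-2.91) and Cxcr4 (-3.09), S1pr4 (-2.12) and the lysophosphatidic acid receptor Lpar6 (-2.33) fell too. Ccr7, the lymph node homing receptor, gave -0.19 (limma adjusted p = 0.422). Gpr25 rose by 4.32 (limma adjusted p = 0.00027) and Ptger2, a receptor for prostaglandin E, by 0.92 (limma adjusted p = 0.0094). Some of these receptors are also expressed by the B cells and myeloid cells whose markers fell on the same arrays.

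Between genotypes under peptide, 1 of 30 receptors passed in p50 cRel DKO N4 minus WT N4, against 0.519% of all genes, and 2 of 30 in p50 cRel DKO N4 minus PKCθ KO N4, against 0.431%. Ccr9 read 8.28 and 8.49 on p50 cRel DKO N4 arrays, against 5.78 and 6.60 on WT N4 arrays, a rise of 2.19 (limma adjusted p = 0.0375). Cxcr5, a chemokine receptor for follicle homing, read 7.71 and 7.29 on p50 cRel DKO N4 arrays, against 9.43 and 9.72 on PKCθ KO N4 arrays, and was lower by -2.07 (limma adjusted p = 0.0148). Gpr183, an oxysterol receptor, read 9.01 and 8.88 on p50 cRel DKO N4 arrays, against 9.88 and 10.05 on PKCθ KO N4 arrays (-1.02, limma adjusted p = 0.041). The groups did not overlap for any of these 3. The count of called receptors was 0 in 8 of 14 alternative settings for the p50 cRel DKO against WT N4, among them those without p50 cRel DKO N4 replicate 1 or 2 or WT N4 replicate 1. It was 0 in 4 of 14 for the p50 cRel DKO against PKCθ KO N4, among them those without p50 cRel DKO N4 replicate 1 or 2 or PKCθ KO N4 replicate 2, and 1 without PKCθ KO N4 replicate 1.

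Regulators outside the RGS family and effectors downstream were set between WT N4 and WT non-pulsed as well. Of 12 measured other regulators (14 listed), 6 fell, 2 rose and 4 did not pass, with a median of -0.54. The share called was 66.7%, beside 40.7% of all genes, and 4 of the 12 passed with median centring in place of 8. Gpsm3, which binds inactive Gi alpha, fell by 1.62 (limma adjusted p = 0.00025), the receptor kinases Grk3 (-1.96) and Grk5 (-1.01) fell, and so did Arrb2 (-0.62), which encodes a beta-arrestin. Gpsm1 rose by 0.96 and Pdcl3 by 0.43. Of 27 measured effectors (28 listed), 13 fell, 2 rose and 12 did not pass, with a median of -0.89. The share called was 55.6%, beside 40.7% of all genes, and 11 of the 27 passed with median centring in place of 15. Over all genes that scaling gave 3703 in place of 5101, so calls were lost beyond these lists too. Dock2 (-1.54) and Prex1 (-1.98), activators of Rac in chemokine responses, fell, as did the adenylyl cyclase Adcy7 (-1.67) and the phosphodiesterase Pde4b (-1.57). Elmo1 rose by 0.89 and Adcy3 by 0.66. Under peptide limma called 0 of 12 regulators and 0 of 27 effectors between genotypes, against 0.024% to 0.519% of all genes. At such shares a count of 0 in lists of this size is uninformative.

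**Figure D5:**
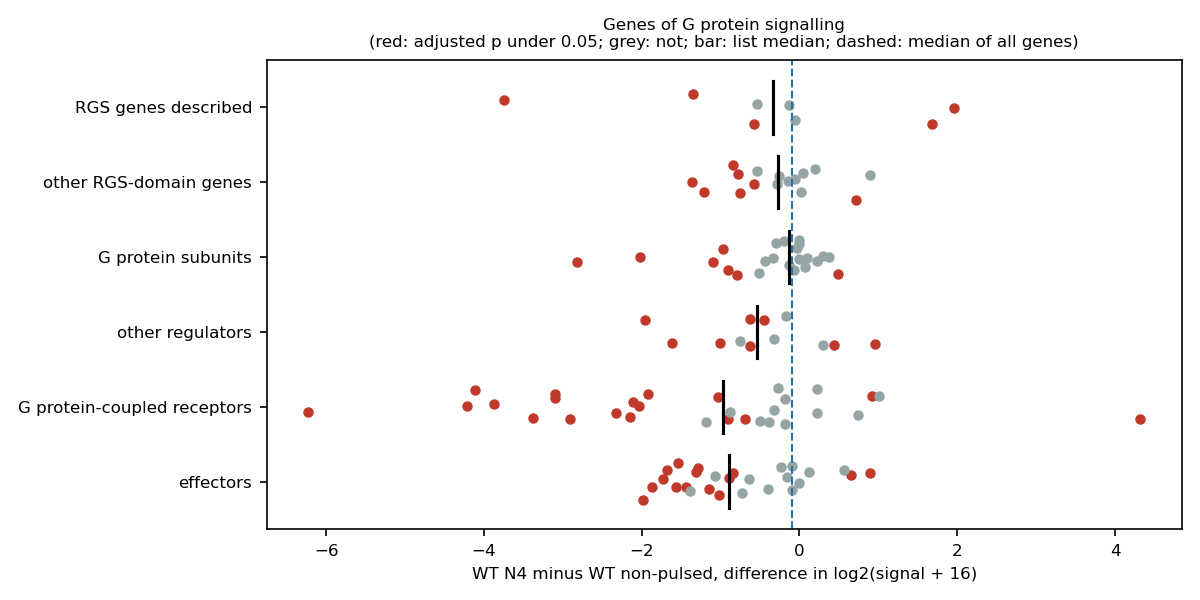
Difference WT N4 minus WT non-pulsed in log2(signal + 16) on the x axis for each gene of the lists on the y axis (points; red passed the test), with list medians as bars and the median of all genes (-0.10) dashed. The receptor and effector lists have medians of -0.97 and -0.89, and the 8 RGS genes one of -0.34.

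Genes whose levels ran most like each member over the 8 arrays were found by Pearson's r among 3999 genes with an SD of at least 0.5. The arrays fall into an N4 and a WT non-pulsed set, so high values can come from that contrast alone and are a description of these arrays. Rgs16 ran most like Prf1 (r = 0.985), Cnih3 (0.984) and Poglut3 (0.983). Prf1, which encodes the pore-forming protein of cytotoxic T cells, read 12.38 and 12.50 on p50 cRel DKO N4 arrays, 11.25 and 11.13 on PKCθ KO N4 arrays, 10.20 and 10.11 on WT N4 arrays, and 7.33 and 7.89 on WT non-pulsed arrays. That is the same order of groups as for Rgs16.

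For Rgs1 the closest were Lrp8 (r = 0.990), Igtp (0.984) and Prickle1 (0.975). Lrp8 likewise had a gap between the WT non-pulsed arrays, at 7.02 and 8.27. For Rgs18 they were Trim5 (0.997), Klf3 (0.995) and Yipf2 (0.993), and for Rgs14 Glmp (0.994), Fam43a (0.992) and Cstb (0.992), all of them higher on both WT non-pulsed arrays. Members that moved less had looser neighbours. Rgs3 ran with Alcam (0.937), Id3 (0.920) and Otud1 (0.918), Rgs10 with Ctsw (0.938), Tgm3 (0.937) and Ms4a4b (0.916), Rgs19 with Urah (0.964), Ndnf (0.957) and H1f10 (0.882), and Rgs2 with Ttc34 (0.944), Nupr1l (0.921) and Tcl1b1 (0.903). Some of these lay near the filter's limit of 5.38. Over the 8 arrays Ttc34 read 4.74 to 6.34, Nupr1l 4.30 to 6.08, Tgm3 4.88 to 6.32 and Urah 5.18 to 6.79.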

How the data were processed

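The authors deposited a linear intensity for each probe set. Per the submitters' processing notes MAS5 in GCOS 1.4 was used. The 2% trimmed mean, computed here, was 500.0 on every array, and median signals ranged between 33.6 and 70.3. Precision is limited by the number of arrays. Of 45101 probe sets 64 controls were left out, 34945 of the rest had 1 symbol in the platform annotation, 932 had several and 9160 were not in that table. Symbols of 34741 were updated through RefSeq genes of GRCm38.p6.

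Deposited signals were taken as log2(signal + 16), probe sets with a mean under the 40th percentile (5.38) were left out (27022 of 45037 stayed), and the brightest probe set stood for each of 12520 genes. All 8 arrays entered 1 model with a coefficient per group in limma 3.58.1 under R 4.3.3 (lmFit, eBayes with trend, 4 residual degrees of freedom), and p-values were adjusted by Benjamini-Hochberg over the 12520 genes, with 0.05 as threshold. Intervals are 95%. Other probe sets of a gene were fitted in the same model over all probe sets. The fit was also run on simulated data with independent noise and few changed genes, which does not check the calls made here. Groups and replicate numbers come from the sample titles, where an array with no number was taken as replicate 1.

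The members, and the gene and marker lists, were chosen with earlier results of these data known. Named are all members, the members of each list past the test with the lowest p in a comparison, a few fixed genes (Gnai2, Gnai3, Gnaq, S1pr1, Ccr7, Cxcr4, Arhgef1, Axin2), the 3 genes most like each member, and the few that rose in a list where most fell, which with Rgs13, C1qa and C1qc were picked after their values were seen. The markers of CD4 T cells (4 measured, 3 lower and 1 higher in WT N4 than in WT non-pulsed), natural killer cells (5 measured, 2 lower, 1 higher) and red cells (3 measured, 2 lower) were also tested. Alternatives were quantile normalization, median centring, other pseudocounts, no filter, other choices of probe set, eBayes without trend, the arrays of 1 comparison alone, the replicate number as a block, and leaving out each array.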

Additional observations from a re-analysis of the deposited data

How the results depend on the processing

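Of the 84 recounts of RGS genes past the test under an alternative (14 for each of 6 comparisons), 73 stayed within 1.5 times the reported count and 11 moved. With each array centred on its median, 3 in place of 5 passed in WT N4 minus WT non-pulsed and in PKCθ KO N4 minus WT non-pulsed, and 0 in place of 1 in both comparisons of the p50 cRel DKO under peptide. Over all genes that scaling gave 3703 in place of 5101 in WT N4 minus WT non-pulsed. In PKCθ KO N4 minus WT non-pulsed it gave 3628 in place of 5078. Without a trend in eBayes, 0 passed in p50 cRel DKO N4 minus PKCθ KO N4. Leaving out each array in turn gave 4 to 5 for WT N4 minus WT non-pulsed, 4 to 5 for PKCθ KO N4 minus WT non-pulsed, 3 to 4 for p50 cRel DKO N4 minus WT non-pulsed, 0 to 1 for p50 cRel DKO N4 minus WT N4, 0 throughout for p50 cRel DKO N4 minus PKCθ KO N4, and 0 throughout for PKCθ KO N4 minus WT N4. Fewer arrays in a fit leave it less power. The cause of the moves, with an array left out or under another setting, was not tested.

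With the replicate number as a block, 2 in place of 1 passed in p50 cRel DKO N4 minus PKCθ KO N4, Rgs2 being added (0.90, limma adjusted p = 0.048), and no other RGS count moved by over 1.5 times. Over all genes the block gave 200 in place of 65 for the p50 cRel DKO against WT N4 and 152 in place of 54 against PKCθ KO N4. Median centring gave 36 in both, eBayes without trend 35 and 17, and leaving out 1 array 13 to 35 and 0 to 34. The samples share only a number: deviations of same-numbered arrays correlated with r between 0.25 and 0.58, which is a hint from the data.

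None of the differences that changed sign had passed the test. In WT N4 minus WT non-pulsed median centring gave 0.35 for Rgs2 and 0.27 for Rgs19. In p50 cRel DKO N4 minus WT non-pulsed it gave 0.31 for Rgs2, 0.19 for Rgs10 and 0.22 for Rgs19, and in PKCθ KO N4 minus WT non-pulsed 0.20 for Rgs10, where quantile normalization gave -0.092 for Rgs19. A pseudocount of 4 gave -0.10 for Rgs18 in PKCθ KO N4 minus WT N4, -0.13 in p50 cRel DKO N4 minus WT N4 and -0.026 in p50 cRel DKO N4 minus PKCθ KO N4, where quantile normalization gave -0.0017 and median centring -0.0015 for Rgs18 and -0.0072 for Rgs10. With 1 array left out at a time, differences ranged in WT N4 minus WT non-pulsed over -0.20 to 0.10 for Rgs2 and -0.38 to 0.13 for Rgs19; in p50 cRel DKO N4 minus WT N4 over -0.35 to 0.051 for Rgs1, -0.18 to 0.13 for Rgs2, -0.082 to 0.32 for Rgs14 and -0.20 to 0.11 for Rgs19; in p50 cRel DKO N4 minus PKCθ KO N4 over -0.040 to 0.50 for Rgs1, -0.19 to 0.21 for Rgs10, -0.27 to 0.13 for Rgs14 and -0.24 to 0.28 for Rgs18. In PKCθ KO N4 minus WT N4 Rgs3 ranged over -0.21 to 0.32, in PKCθ KO N4 minus WT non-pulsed Rgs19 over -0.10 to 0.41, and in p50 cRel DKO N4 minus WT non-pulsed Rgs2 over -0.23 to 0.074 and Rgs19 over -0.43 to 0.081.

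Scaling shifted all genes between peptide and no peptide: the median of WT N4 minus WT non-pulsed was -0.10 for deposited signals, 0.09 with quantile normalization and 0.30 with median centring. Of the calls, 42.3%, 52.6% and 61.1% were higher under these 3 scalings. Rgs18 on N4 arrays lay near the filter's limit, where the sign of a difference turned with the pseudocount.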
